A study of Mus musculus with 3 samples.

Results

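The sites described here are CAP-D3 peaks that stood close together in the Rb+/+ library in places where the RbΔL/ΔL library had no peak. A Rb+/+ peak was taken when no RbΔL/ΔL peak overlapped it or lay within 10 kb, and when another Rb+/+ peak of that kind lay within a gap of 10 kb. By this rule 805 of the 8195 Rb+/+ peaks were members (9.82%), and chaining gaps of at most 10 kb joined them into 381 clusters. The peaks came from chromatin immunoprecipitation and sequencing with an antibody against CAP-D3 in primary mouse embryonic fibroblasts, taken while proliferating at passage 4. One library came from cells with wild-type Rb (Rb+/+) and 1 from cells homozygous for RbΔL (RbΔL/ΔL), an allele that alters the cleft by which the retinoblastoma protein holds partners carrying an LXCXE motif. Input DNA was the third sample, and its values were not analysed here. The values are the authors' lists of called peaks, 1 per genotype, with a score for each peak. The files give no read depth, and each genotype has 1 library, so no p-value was computed and the differences below describe these 2 libraries. Whether they exceed the spread between libraries of 1 genotype is not known.

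CAP-D3 is a subunit of condensin II, the condensin complex that resides in the nucleus through interphase and helps compact and individualise chromosomes in mitosis. The retinoblastoma protein binds CAP-D3 and, in flies and mammals, helps bring condensin II to chromatin, and the LXCXE-binding cleft that RbΔL disrupts is needed for this contact. In flies CAP-D3 and the retinoblastoma homologue also influence the expression of neighbouring genes that lie in clusters. This is background and was not measured here. All positions are in the mm9 build and starts are 1-based. Neither genes nor genome sequence of that build were used here, so each cluster is identified by its coordinates alone, and its place relative to genes, exons and introns was not examined.

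Most clusters were pairs. Of the 381 clusters, 344 held 2 peaks (90.3%), 32 held 3, 4 held 4 and 1 held 5. Clusters of 3 or more peaks made up 9.71% of all (37 clusters with 117 peaks, exact 95% binomial interval 6.93 to 13.1%). Intervals here and below are of this kind and cover counting error only. The clusters were short, with a median span of 4524 bp (quartiles 2054 and 7484) from the first to the last edge. The shortest spanned 627 bp and the longest 19620 bp, and 30 spanned over 10 kb. Peaks themselves took up a median of 19.7% of the span (quartiles 11.8 and 42.4%). In all, 346584 bp of peak lay within 1935000 bp of cluster. The members were narrow sites, 187 to 990 bp wide with a median of 431 bp, and no member was wider than 1 kb.

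**Figure D1:**
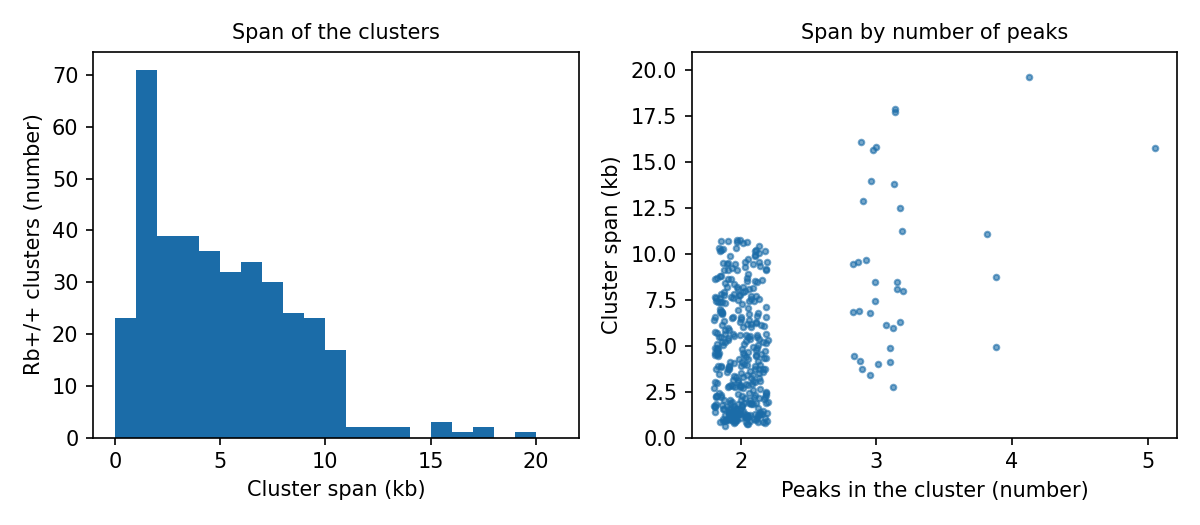
Left, number of Rb+/+ clusters by span in 1 kb bins; right, span of each cluster (1 point per cluster, spread sideways for display) by its number of peaks. The median span was 4524 bp, and only clusters of 3 or more peaks reached beyond 10733 bp.

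The largest cluster lay on chromosome 10 at 79611986 to 79627752 and held 5 peaks over 15767 bp. It consisted of a pair with scores of 59.95 and 64.24 separated by 575 bp, then, after 9238 bp without a peak, 3 more peaks with scores of 63.32, 51.89 and 50.43. The nearest RbΔL/ΔL peak was 33.3 kb away. No peak of this cluster scored above 64.24, in a list whose members had a median score of 60.83.

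Of the clusters of 4 peaks, the most compact lay on chromosome 15 at 77717022 to 77721950. Its peaks scored 77.11, 65.55, 73.27 and 75.19, with gaps of 99, 718 and 2190 bp, and the nearest RbΔL/ΔL peak was 109 kb away. On chromosome 7, the cluster at 106500527 to 106509282 was made of 2 close pairs, with scores of 61.63 and 78.55 at a gap of 328 bp and 75.09 and 93.12 at a gap of 11 bp. The pairs were 6405 bp apart. A second cluster on that chromosome, at 148654044 to 148665098, had scores of 66.82, 61.85, 53.31 and 58.76 and gaps of 6905, 1321 and 1157 bp. The cluster on chromosome 5 at 143656585 to 143676204 was the longest of all, 19620 bp, with scores of 87, 57.83, 113.62 and 57.13. It stood close to the limit of the rule, with a RbΔL/ΔL peak 10.9 kb away.

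**Figure D2:**
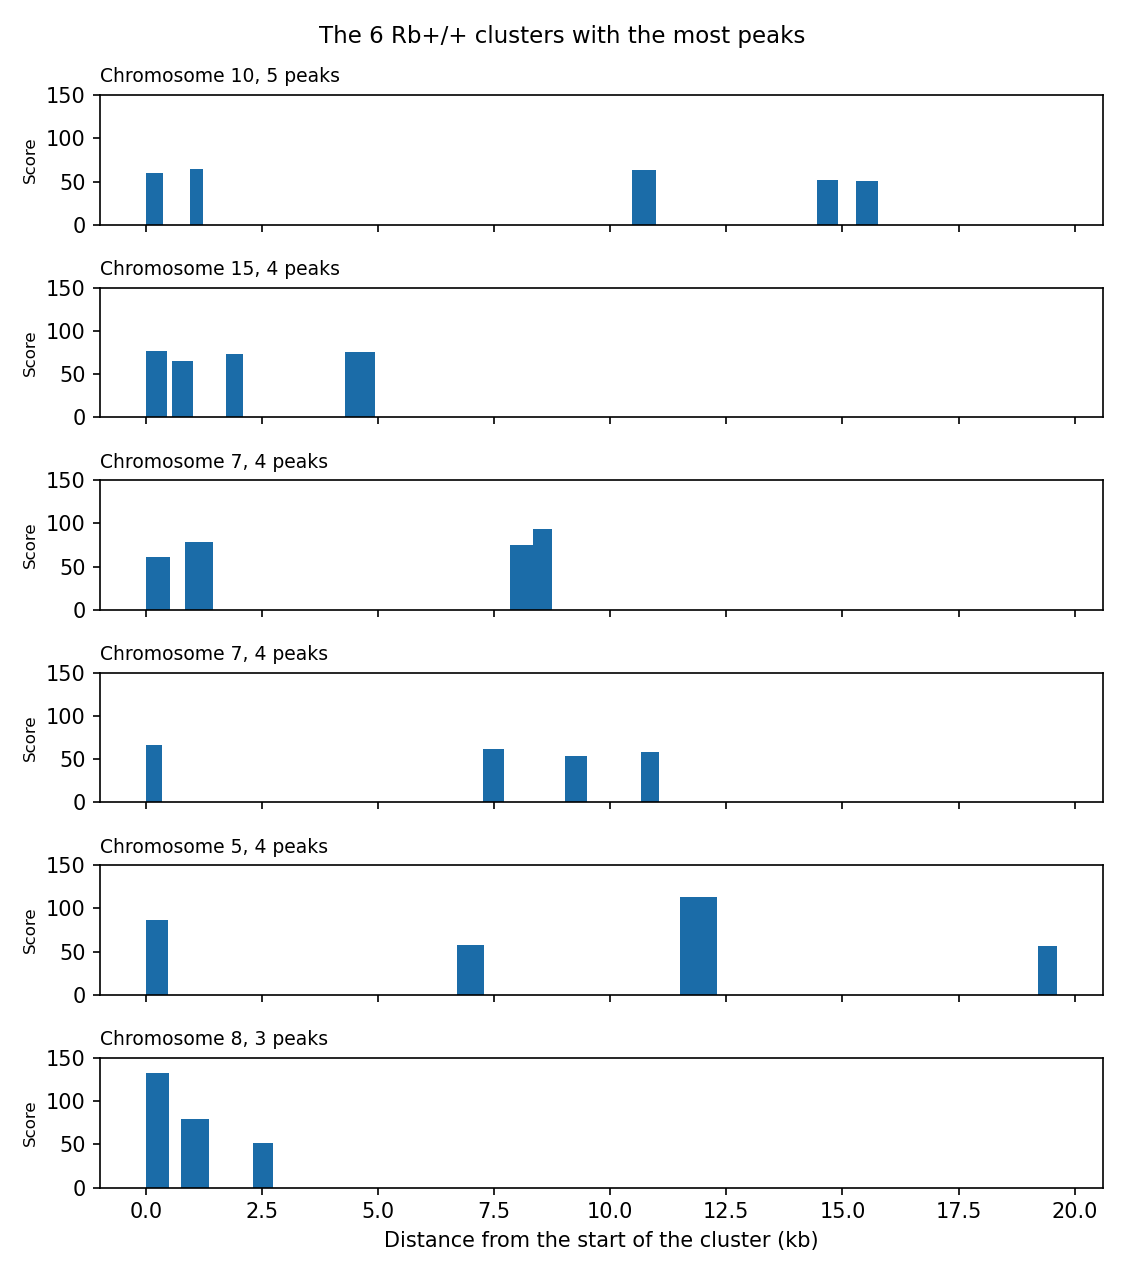
Peaks of the 6 Rb+/+ clusters with the most peaks, with distance from the start of the cluster in kb on the x axis and the score from the authors' peak caller on the y axis; each bar spans the width of 1 peak. The peaks were unevenly spaced, and scores ran from 50.43 to 132.44.

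The remaining clusters named for their number of peaks were the 5 shortest of the 32 clusters of 3 peaks, whose median span was 8036 bp. The tightest, on chromosome 8 at 11555475 to 11558220, fell from a score of 132.44 through 79.53 to 51.69 across 2746 bp, of which 57.0% was covered by peaks. On chromosome 17, the cluster at 27699059 to 27703046 had scores of 69.98, 87.85 and 75.38, and the one at 84731921 to 84735641 had scores of 61.04, 64.24 and 80.92. On chromosome 10, the cluster at 117154734 to 117158860 reached 95.92, with 57.55 and 68.04 beside it. On chromosome 11, the peaks at 120206269 to 120209658 scored 54.34, 58.04 and 53.14. These 5 clusters lay 56.8 to 181 kb from the closest RbΔL/ΔL peak. The longest clusters of 3 peaks were much more open. At 59395117 to 59412984 of chromosome 19, the gaps were 8362 and 8448 bp. At 65089048 to 65106742 of chromosome 11, they were 8040 and 8478 bp. The other long ones lay on chromosome 16 at 32638288 to 32654340 (16053 bp) and on chromosome 6 at 125254379 to 125270172 (15794 bp).

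Many neighbours inside clusters were separated by less than 1 kb. The 424 gaps between consecutive members ran from 2 to 9956 bp with a median of 3279 bp (quartiles 1040 and 6054). Of these, 103 were 1 kb or shorter (24.3%, interval 20.3 to 28.7%) and 25 were between 9 and 10 kb (5.90%, interval 3.85 to 8.58%). The smallest gap, 2 bp, divided a pair on chromosome 6 at 22371292 to 22372214, and 19 gaps were 100 bp or shorter. Beyond the limit of the rule the number of gaps fell slowly. Among all Rb+/+ peaks without a RbΔL/ΔL peak within 10 kb, there were on average 42.4 gaps per kb of gap length up to 10 kb, 23.6 from 10 to 20 kb, 22.4 from 20 to 30 kb and 17.5 from 40 to 50 kb. Above 5 kb the counts per 1 kb bin, 24 to 32, were already close to those beyond 10 kb, so the surplus of short gaps lay mainly below 5 kb.

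**Figure D3:**
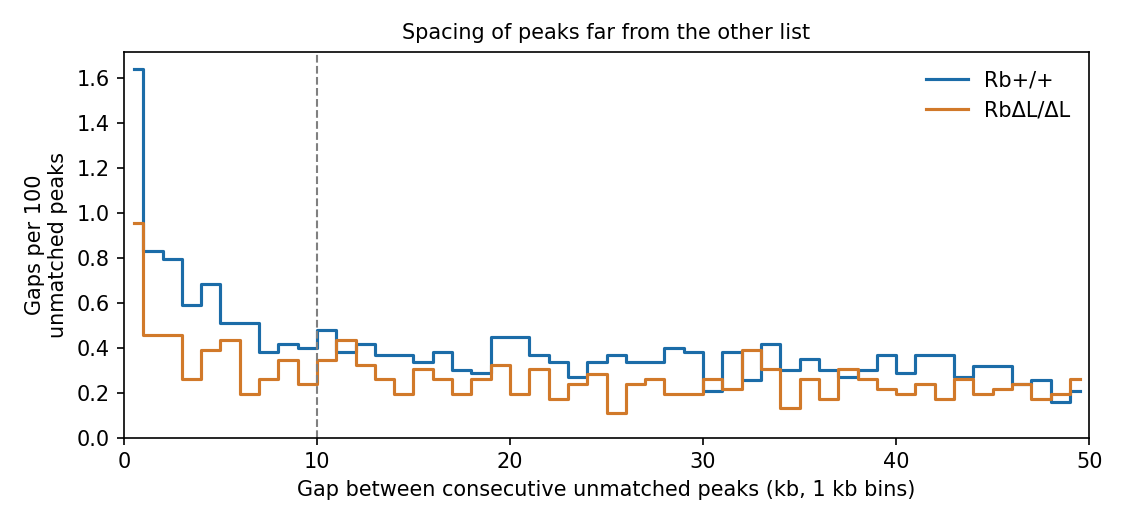
Gaps between consecutive peaks that have no peak of the other list within 10 kb, per 100 such peaks and in 1 kb bins of gap length, for Rb+/+ and RbΔL/ΔL; the dashed line marks the 10 kb limit. The first bin held 103 Rb+/+ gaps and 44 RbΔL/ΔL gaps, and the bin before the limit 25 and 11.

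Short gaps were not limited to these clusters. With the lists exchanged, so that RbΔL/ΔL peaks far from Rb+/+ peaks were chained in the same way, 44 of 184 gaps were 1 kb or shorter (23.9%, interval 17.9 to 30.7%). Among Rb+/+ peaks that did have a RbΔL/ΔL peak within 10 kb, 89 of 302 gaps of up to 10 kb were that short (29.5%, interval 24.4 to 35.0%). The intervals of all 3 shares overlapped. Gaps of 100 bp or less made up 4.48% of the gaps inside the Rb+/+ clusters (interval 2.72 to 6.91%) and 1.63% inside the RbΔL/ΔL ones (interval 0.338 to 4.69%). The files do not show whether peaks a few base pairs apart are separate sites or 1 site that the caller divided. When peaks of each list within 1 kb of each other were counted as 1 site, 615 members in 295 clusters were left.

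The members scored much like isolated Rb+/+ peaks and near the middle of the Rb+/+ list as a whole. The score ranks peaks within a list only, and since strong Rb+/+ peaks usually had a RbΔL/ΔL peak nearby, the rule itself favours low scores. Member scores ran from 50.05 to 282.78, with a median of 60.83 (quartiles 55.60 and 73.52), and the median member stood at the 45.7 percentile mark of all Rb+/+ scores. Isolated Rb+/+ peaks, those far from both the RbΔL/ΔL list and each other, numbered 5472 and had a median of 60.34 (quartiles 55.34 and 68.38). The 1918 Rb+/+ peaks with a RbΔL/ΔL peak within 10 kb had a median of 80.21 (quartiles 59.88 and 171). A score of 100 or more was reached by 49 members (6.09%, interval 4.54 to 7.97%), 234 isolated peaks (4.28%, interval 3.76 to 4.85%) and 757 peaks near a RbΔL/ΔL peak (39.5%). Median widths in these groups were 431, 420 and 459 bp.

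Members with a close neighbour had somewhat higher scores than those with a distant one. The 204 members whose nearest fellow member lay within 1 kb had a median score of 63.22 (quartiles 56.26 and 76.95). The 257 members whose nearest fellow lay more than 5 kb away had a median of 59.87 (quartiles 55.34 and 66.79). Scores of 100 or more were found in 8.82% of the first (interval 5.31 to 13.6%) and 5.45% of the second (interval 3.01 to 8.97%), with overlapping intervals. Both peaks of a pair fall in the same group, so these intervals are too narrow. No interval was computed for the difference in medians. Widths were alike, with medians of 426 and 423 bp.

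Few members were strong. A score of 100 or more was reached by 49 of the 805 members (6.09%), which lay in 47 of the 381 clusters. Every peak reached it in 2 clusters, both pairs. With so few strong members, clusters made up of them are rare in any arrangement. The number to be had if scores were unrelated within clusters was not computed. One lay on chromosome 6 at 134847579 to 134848675, with scores of 189.02 and 120.02 and a gap of 60 bp. The other lay on chromosome 5 at 130221009 to 130231179, with scores of 104.47 and 104.05. Among the 344 pairs, taken in order of score, the higher score had a median of 69.32 (quartiles 60.83 and 84.43) and the lower one a median of 55.89 (quartiles 53.71 and 60.17). The scores of the left and right peak showed little relation across pairs (Spearman's rho -0.09, a description over pairs that share 1 library). The left peak was the higher in 170 pairs and the right one in 173. In 188 clusters (49.3%, interval 44.2 to 54.5%) no peak reached 70.

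The highest-scoring member lay on chromosome 11 at 69793596 to 69793953, with a score of 282.78. Its partner, 532 bp further on, scored 62.09, and the nearest RbΔL/ΔL peak was 15.9 kb from the cluster. The next were on chromosome 5 at 65781134 to 65783010 (scores of 64.24 and 204.54, gap 1079 bp), chromosome 2 at 103601154 to 103606738 (192.9 and 62, gap 4637 bp) and chromosome 7 at 26101621 to 26107311 (191.84 and 72.73, gap 4692 bp). The chromosome 6 pair with both scores above 100 came after these. In each of these clusters but the last, the lower-scoring peak was under 80.

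The share of Rb+/+ peaks in clusters was highest in the upper score bands, with intervals that in part overlapped. Of the 6277 Rb+/+ peaks with no RbΔL/ΔL peak within 10 kb, which are 76.6% of the list, 12.8% were clustered. The share was 11.8% of 1419 peaks with scores of 50 to 55 (interval 10.2 to 13.6%) and 11.8% of 1744 with scores of 60 to 70 (interval 10.3 to 13.4%). It was 17.0% of 499 peaks scoring 80 to 100 (interval 13.8 to 20.6%) and 17.3% of 283 scoring 100 or more (interval 13.1 to 22.2%). The interval of this last band overlapped those of the low bands, and clustering adds peaks by the pair, which makes all of these intervals too narrow. In the RbΔL/ΔL list no such rise was seen. There the share was 7.80% of 410 peaks at 50 to 55 (interval 5.40 to 10.8%) and 6.80% of 206 peaks at 100 or more (interval 3.77 to 11.1%). Within the 6437 highest-scoring Rb+/+ peaks, a list as long as the RbΔL/ΔL one, the shares were lower throughout. They were 9.17% at 60 to 70 (interval 7.86 to 10.6%), 14.0% at 80 to 100 (interval 11.1 to 17.4%) and 12.0% at 100 or more (interval 8.47 to 16.4%). The Rb+/+ bands of 60 to 70 and 80 to 100 still had separate intervals, and that of 100 or more overlapped both. Against this shorter list, the RbΔL/ΔL shares were 7.75% at 60 to 70, 8.83% at 80 to 100 and 7.80% at 100 or more (interval 4.61 to 12.2%). At 70 to 80 the shares were 9.01% in Rb+/+ and 9.22% in RbΔL/ΔL. A score does not stand for the same evidence in both lists, and no test of the difference between lists was possible.

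**Figure D4:**
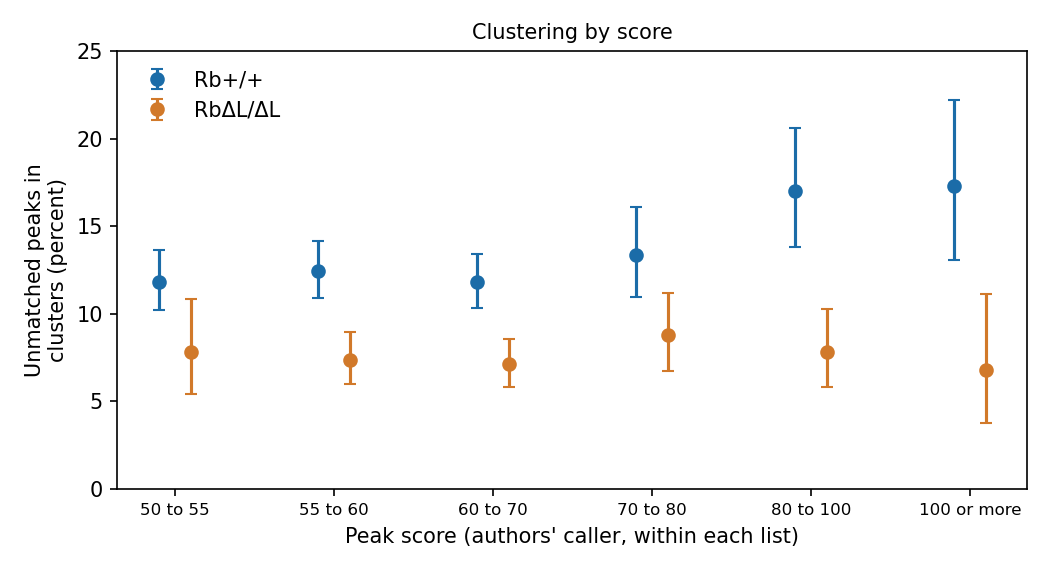
Percent of peaks far from the other list that were clustered, by score band within each list, for Rb+/+ and RbΔL/ΔL; points are shares and bars exact 95% binomial intervals. Rb+/+ shares ran from 11.8% in the lowest band to 17.3% at scores of 100 or more, and RbΔL/ΔL shares lay between 6.80% and 8.77%. These are shares of the full lists, which differ in length.

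The Rb+/+ list held more such clusters than the RbΔL/ΔL list, but by a smaller margin when the lists were cut to equal length. Exchanging the lists gave 349 clustered RbΔL/ΔL peaks (5.42% of 6437) in 165 clusters, so members were 2.31 times as many in Rb+/+, against 1.27 times for the whole lists. Of the RbΔL/ΔL peaks, 4616 (71.7%) had no Rb+/+ peak within 10 kb, and 7.56% of these were clustered. With only the 6437 highest-scoring Rb+/+ peaks, all with scores of at least 55.28, there were 479 Rb+/+ members in 226 clusters and 396 RbΔL/ΔL members in 187 clusters, and the ratio was 1.21. Of the peaks far from the other list, 479 of 4757 in Rb+/+ were then clustered (10.1%, interval 9.23 to 10.96%), and 396 of 4793 in RbΔL/ΔL (8.26%, interval 7.498 to 9.08%). Clustering always adds at least 2 peaks at a time, so these intervals are too narrow to tell the lists apart. In the share of larger clusters and in median span the 2 lists were alike. Clusters of 3 or more peaks were 9.71% of the Rb+/+ clusters and 9.70% of those found in RbΔL/ΔL cells (interval 5.64 to 15.3%), and the median spans were 4524 and 4701 bp. Clusters of exactly 3 peaks had median spans of 8036 bp in Rb+/+ (32 clusters) and 10277 bp in RbΔL/ΔL (14 clusters).

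Clusters were most frequent on chromosome 11 and rarest on the X chromosome. Chromosome 11 held 35 clusters with 77 members, or 28.7 clusters per 100 Mb, against 14.4 over all chromosomes. Chromosome 19 followed with 14 clusters (22.8 per 100 Mb), then chromosome 9 with 27 (21.8) and chromosome 17 with 20 (20.99). The X chromosome held 6 clusters (3.60 per 100 Mb), chromosome 12 held 7 (5.77) and chromosome 16 held 7 (7.12). The number of X copies in these cells was not determined. Where peaks are dense, neighbours are closer, and across the 20 chromosomes the share of clustered peaks went with the density of Rb+/+ peaks far from the RbΔL/ΔL list (Spearman's rho 0.69, a description over chromosomes). Chromosome 17 had the highest share, 18.4% of 228 peaks (interval 13.6 to 24.1%), although its density, 2.39 per Mb, was below the 3.74 of chromosome 11, where 16.9% of 456 peaks were clustered (interval 13.6 to 20.6%). The X chromosome had the lowest share, 6.19% of 194 peaks (interval 3.24 to 10.6%).

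**Figure D5:**
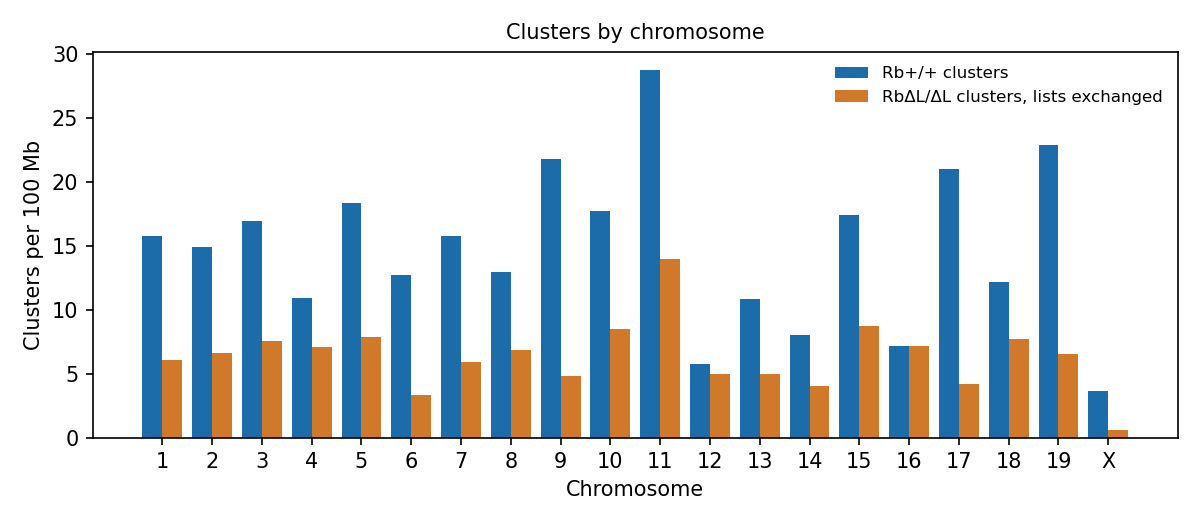
Clusters per 100 Mb of each mm9 chromosome, for Rb+/+ clusters and for RbΔL/ΔL clusters found with the lists exchanged. Chromosome 11 stood highest in Rb+/+ with 28.7, and 19 of the 20 chromosomes had more Rb+/+ than RbΔL/ΔL clusters. The full lists were used, which differ in length.

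With the lists exchanged, 19 chromosomes had fewer RbΔL/ΔL than Rb+/+ clusters, and on chromosome 16 both had 7. Chromosome 9 had 27 Rb+/+ and 6 RbΔL/ΔL clusters, and chromosome 17 had 20 and 4. Chromosome 1 had 31 and 12, and the X chromosome had 6 and 1. The margin was narrower on some others, where chromosome 12 had 7 and 6 and chromosome 4 had 17 and 11. Chromosome 11 had the most clusters in both, 35 and 17. The counts per chromosome are small in RbΔL/ΔL, and all come from the full lists, of which the Rb+/+ one is longer. With lists of equal length the totals were 226 and 187 clusters, and single chromosomes were not compared. The first 5 Mb of sequence next to the centromeric ends, counted from 3 Mb, held 15 Rb+/+ clusters over all chromosomes, and the last 5 Mb held 22. Several of the 15 lay on chromosome 19, between 5094274 and 7026293. For scale, there were 14.4 clusters per 100 Mb over all chromosomes, and the share of all Rb+/+ peaks in these zones was not computed.

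Some megabases held more than 1 cluster. The members occupied 327 bins of 1 Mb, of which 43 held 2 or more clusters. How many such bins an even spread of the clusters would give was not computed. The bins on chromosomes 11 and 17 below were picked as the fullest. The fullest bin was 100 to 101 Mb of chromosome 11, where 9 of 18 Rb+/+ peaks were members, in 4 clusters, and 7 RbΔL/ΔL peaks lay elsewhere in the bin. The clusters there began at 100176320, 100340915, 100791974 and 100820505, and the last pair of clusters was 19.1 kb apart. At 87 to 88 Mb of chromosome 17, 8 of only 9 Rb+/+ peaks were members, in 4 pairs of peaks starting at 87361638, 87505727, 87555268 and 87573940. The highest scores of these pairs were 90.57, 103.01, 60.77 and 73.92, and 3 RbΔL/ΔL peaks lay in the bin, none closer than 72.3 kb to a pair. The 2 latter pairs, 13.2 kb apart, were the closest neighbouring clusters anywhere. By contrast, 79 to 80 Mb of chromosome 10, with 27 Rb+/+ peaks, held 7 members in 2 clusters and 15 RbΔL/ΔL peaks, of which 4 were clustered far from Rb+/+ peaks. In all, 33 clusters (8.66%, interval 6.04 to 11.9%) had another cluster within 100 kb.

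Clusters lay in surroundings that held more peaks of both lists than those of isolated Rb+/+ peaks. The rule counts only Rb+/+ neighbours that are themselves far from RbΔL/ΔL peaks. It asks for such a neighbour within 10 kb of each member and for none within 10 kb of an isolated peak. The rule thereby favours places dense in peaks for the clusters, and the values below are description only. Within 500 kb to either side there was a mean of 6.22 other Rb+/+ peaks around clusters and 4.75 around isolated peaks. RbΔL/ΔL peaks numbered 4.85 and 3.67 on average in the same windows. The nearest RbΔL/ΔL peak was a median of 69.0 kb away from clusters (quartiles 30.8 and 155 kb) and 104 kb from isolated peaks (quartiles 43.7 and 253 kb). A RbΔL/ΔL peak lay within 100 kb of 234 clusters (61.4%, interval 56.3 to 66.3%) and of 2666 isolated peaks (48.7%, interval 47.4 to 50.1%). A cluster is wider than a peak, by a few kb, which shortens its distances slightly. No RbΔL/ΔL peak at all lay within 500 kb of 16 clusters (4.20%) and of 556 isolated peaks (10.2%).

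The 5 clusters farthest from any RbΔL/ΔL peak were pairs, as were 90.3% of all clusters. They lay on chromosome 9 at 113835295 to 113840484 (1002 kb), chromosome 2 at 67455134 to 67456102 (971 kb), chromosome 8 at 120807495 to 120810338 (931 kb), chromosome 14 at 102909438 to 102911493 (879 kb) and chromosome 15 at 65622168 to 65630263 (852 kb). Their highest scores were 63.89, 90.17, 69.13, 84.12 and 60.26. All of these scores were under 100, as in all but 47 of the 381 clusters.

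Some clusters of the 2 lists lay in the same neighbourhood. A RbΔL/ΔL cluster, of which there were 165, lay within 100 kb of 17 Rb+/+ clusters (4.46%, interval 2.62 to 7.05%) and within 1000 kb of 98 (25.7%). The same shares for isolated Rb+/+ peaks were not computed, so these values have no comparison. The closest instance was on chromosome 6, where Rb+/+ peaks at 82983175 to 82990790 were followed after 10.3 kb by RbΔL/ΔL peaks at 83001107 to 83004624. On chromosome 11, Rb+/+ peaks at 117120976 to 117127804 lay 11.8 kb from RbΔL/ΔL peaks at 117102308 to 117109143, and on chromosome 2, those at 27767241 to 27772122 lay 12.8 kb from RbΔL/ΔL peaks at 27784897 to 27792514. The rule itself keeps clusters of the 2 lists more than 10 kb apart. Rb+/+ peaks that did have a RbΔL/ΔL peak within 10 kb stood within 10 kb of 4 clusters. These were the cluster of 4 peaks on chromosome 5 named above and pairs on chromosome 10 at 79533964 to 79538487, chromosome 11 at 86381234 to 86384173 and chromosome 15 at 77620755 to 77629541.

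The limits of the rule divide peaks that differ little. The members closest to a RbΔL/ΔL peak were 10024 bp (chromosome 18, score 65.98), 10302 bp (chromosome 4, score 58.76) and 10316 bp (chromosome 6, score 56.2) from it. The Rb+/+ peaks just too close were 9997 bp (chromosome 5, score 80.21), 9992 bp (chromosome 9, score 66.13) and 9983 bp (chromosome 11, score 56.49) away. The widest gap still chained was 9956 bp, on chromosome 1 between peaks scoring 50.83 and 64.24, and the next was 9927 bp on chromosome 11. The narrowest gap not chained was 10010 bp, on chromosome 19 between peaks scoring 56.12 and 51.58, and the next was 10026 bp, also on chromosome 19. A place without a RbΔL/ΔL peak had no signal above the caller's threshold in that library, and the signal below it is not known.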

How the data were processed

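The submitters' processing notes name the mm9 build, the aligner Bowtie (version 1.0) and the peak caller MACS (version 1.4.2). For parameters, the caller's control and the handling of duplicate and repeat reads, nothing is given in the sources used here. The authors deposited 1 peak list per ChIP library with a score per peak, so peaks were called per sample. No header says what the score measures, and it was used only within a list. Distances are bases between peak edges, and an overlap counts as 0. Calculations ran in Python (version 3.11.15) with scipy 1.17.1, pandas 2.3.3, numpy 2.4.6 and, for the plots, matplotlib 3.10.9. Chromosome lengths came from GenomeInfoDb 1.38.1. Shares have exact (Clopper-Pearson) 95% intervals, which cover counting error only. Read depth is unknown. Clusters planted in simulated lists were all recovered. They were planted to meet the rule, so this checks only the code. Members and alternatives were chosen with earlier results of these data known, and the score bands were added after seeing the data. Named clusters are the 10 with the most peaks (ties by shorter span), the 5 with the highest-scoring members, the 5 longest, the 5 farthest from RbΔL/ΔL peaks and the 3 peaks on each side of both limits. Other small sets were named after their values were seen. The gene and promoter tables at hand are of a later build and were not used.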

Additional observations from a re-analysis of the deposited data

How the results depend on the processing

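Other settings, 8 in all, were tried on 9 results, and 51 of the 72 values stayed close to the reported one. Close meant within 1.5 times for counts and ratios, and within the 95% interval for shares and medians. Some outcomes follow from the setting itself. A score minimum raises the median score, and the gap limit bounds gaps and spans. The count of close values is therefore no measure of how firm the results are. With the 6437 highest-scoring Rb+/+ peaks, there were 479 members in 226 clusters, the ratio to the RbΔL/ΔL members was 1.21 and the median score 64.24. With a minimum score of 100 in both lists, 6 members in 3 clusters remained, all pairs (0% with 3 or more peaks), with a median score of 134.78. Only 2 RbΔL/ΔL members remained there, so the ratio of 3, counted as close, rests on very few peaks. Chaining gaps of 20 kb gave 1217 members and 16.0% of clusters with 3 or more peaks. Keeping 5 or 20 kb from the RbΔL/ΔL list gave 849 and 691 members, and centre-to-centre distances gave 793. Of 32 values for span, gap and the shares on chromosomes 11 and X, 11 moved, all of them with the gap limit, the merging of close peaks or the score minimum. No paired analysis was possible because there is 1 library per genotype, which also leaves none to drop. The unknown depth limits what peaks near the caller's threshold can show.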

Other observations

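Some score values recurred among the members, such as 76.95 and 90.17, and the commonest was 64.24. A score of 64.24 was given to 37 members (4.60%, interval 3.26 to 6.28%), 255 isolated Rb+/+ peaks (4.66%, interval 4.12 to 5.25%) and 26 Rb+/+ peaks with a RbΔL/ΔL peak within 10 kb (1.36%, interval 0.887 to 1.98%). What the value stands for in read counts is not given in the file. In 152 of the 344 pairs the peak with the higher score was also the wider one, so the wider peak was not usually the higher-scoring one. Some members of equal width also shared a score, such as 53.55 at 469 bp. The relation of score to width over all members was not tested.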
